A study of Mus musculus with 32 samples.

Results

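Khk encodes ketohexokinase, the enzyme that commits fructose to breakdown by phosphorylating it. The ileum is the last segment of the small intestine, where enterocytes take up bile acids and vitamin B12 and finish the absorption of fat, and where Paneth cells at the crypt base secrete defensins. The comparison described here is that of ileum from male Khk KO mice, which lack ketohexokinase, with ileum from male wild-type (WT) mice. It used 8 libraries of polyadenylated RNA, 4 of each genotype, of the 32 libraries of a series that also sampled duodenum, jejunum and liver and asked how fructose and KHK bear on iron homeostasis. The labels give the tissue and the genotype, and no strain, age, diet or deletion design. They do not state the origin of each library beyond 4 mice per group, so the p-values measure the spread between these libraries.

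All 5187 genes of the ileum table were taken, 4485 of them protein-coding, out of 15542 rows in the 4 organ tables of the series. Every gene in it had an unadjusted p under 0.05 in the authors' own test of 16034 genes. Genes outside it were not analysed here, among them the ileal bile acid genes Fabp6, Slc10a2 and Fgf15. Being in the table is therefore no evidence for a gene. Of the ileal enterocyte markers, 7 of 20 were in the table, and all 7 were detected in every library, with summed levels from 26399 to 66119 normalised counts. The genes of the table drew 6531593 to 9149003 reads per library.

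Khk was measured first, as a check of the labels. It is annotated on chromosome 5, 30921431 to 30931248, plus strand, on GRCm38. The Khk KO libraries held 113, 122, 111 and 83.8 normalised counts, and the WT libraries 2617, 1235, 1431 and 1174. The groups were far apart, and Khk KO held 6.65% of the WT mean. The exact two-sided permutation test gave p = 0.0286, the smallest value 4 against 4 libraries allow. edgeR's quasi-likelihood test gave a log2 fold change of -3.91 ± 0.28 (SE), with an adjusted p of 3.01e-04.

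The direction of a gene's change followed its length, the summed bases of its exons. The 4364 tested protein-coding genes were split by length into 5 classes of nearly equal size. In the shortest class, from 258 to 2040 bases, 3.44% of the genes were higher in Khk KO and the median log2 fold change was -0.60. In the next class, from 2041 to 3471 bases, 9.39% were higher. The middle class was mixed, with 47.8% higher. From 5817 to 9160 bases 84.9% were higher, and in the longest class, from 9176 to 41155 bases, 97.6% were higher with a median of 0.62. The short protein-coding genes of the table were thus mostly lower and the long ones mostly higher.

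**Figure D1:**
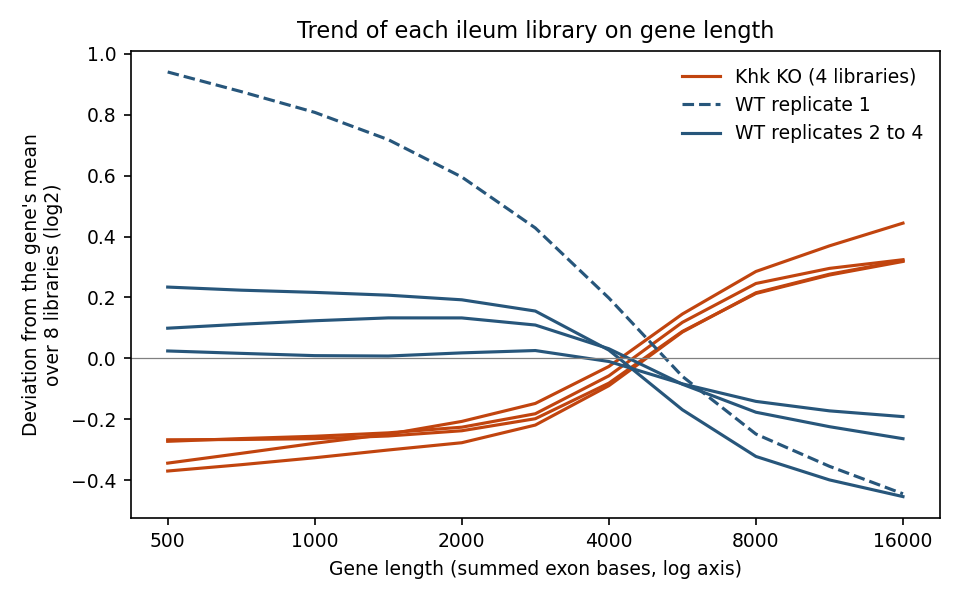
Smoothed deviation of each library (log2 of normalised counts, y axis) from the gene's mean over the 8 libraries, against gene length in bases on a log axis. The 4 Khk KO curves rise from between -0.37 and -0.27 at 500 bases to between 0.32 and 0.44 at 16000 bases, all 4 WT curves fall, and WT replicate 1 (dashed) starts at 0.94.

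The libraries did not share this trend evenly within the WT group. At 1000 bases the smoothed deviation was 0.81 in WT replicate 1, against 0.22, 0.12 and 0.0088 in WT replicates 2, 3 and 4, and -0.33, -0.26, -0.28 and -0.26 in the Khk KO libraries. In WT replicate 1 the median gene of the shortest class stood at 1.58 times its mean in WT replicates 2 to 4. The same ratio, each library against the other 3 of its genotype, was 0.744 in WT replicate 4. Without WT replicate 1 the medians of the shortest and longest classes were -0.39 and 0.60, and no tested gene changed direction. The genes were selected in the comparison that held WT replicate 1, so the unchanged directions say little about that library. The trend was measured on genes selected for differing between the genotypes, and its size over the remaining genes was not analysed here. The cause of the trend was not tested.

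Each gene was therefore weighed in 3 ways. The first fit used edgeR's quasi-likelihood test with the authors' size factors and called 1585 genes at an adjusted p under 0.05. They were 9.89% of the 16034 genes and 33.1% of the 4788 tested genes of the table. The second share is the one to set beside the counts of list members in the table. Of the 16034 genes 1045 rose (6.52%) and 540 fell (3.37%). The split depended on the settings, with 1139 higher and 1207 lower under TMM, and 390 and 545 with the trend on GC content removed. Both of these adjustments were learnt from the selected genes of the table alone. DESeq2 with the authors' size factors gave 1865 and 1526. A second fit removed each library's trend on length and called 476 genes (2.97%), 232 higher (1.45%) and 244 lower (1.52%). These percentages are of the 16034 genes. List counts of the second fit are to be set beside 476 of the 4788 tested genes of the table. Removing the trend also removes any genotype effect that follows length. Calls made only in the second fit rest on the size of the trend among these selected genes, also when a library is left out. A fit without WT replicate 1 called 2579 genes (16.1%), 1547 higher (9.65%) and 1032 lower (6.44%), again as shares of the 16034 genes. All 2579 were among the 5187 genes of the table, so list counts of that fit are to be set beside 2579 of 5187. The third measure set a gene beside the 200 protein-coding genes nearest to it in length, by their log2 fold changes in the first fit, as a description. These neighbours can include other members of the gene's own list. In both fits of all 8 libraries 265 genes were called in the same direction, 178 higher and 87 lower. In the first fit 350 calls, 326 of them rises, also passed without each library in turn, and 45 genes did so in both fits.

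**Figure D2:**
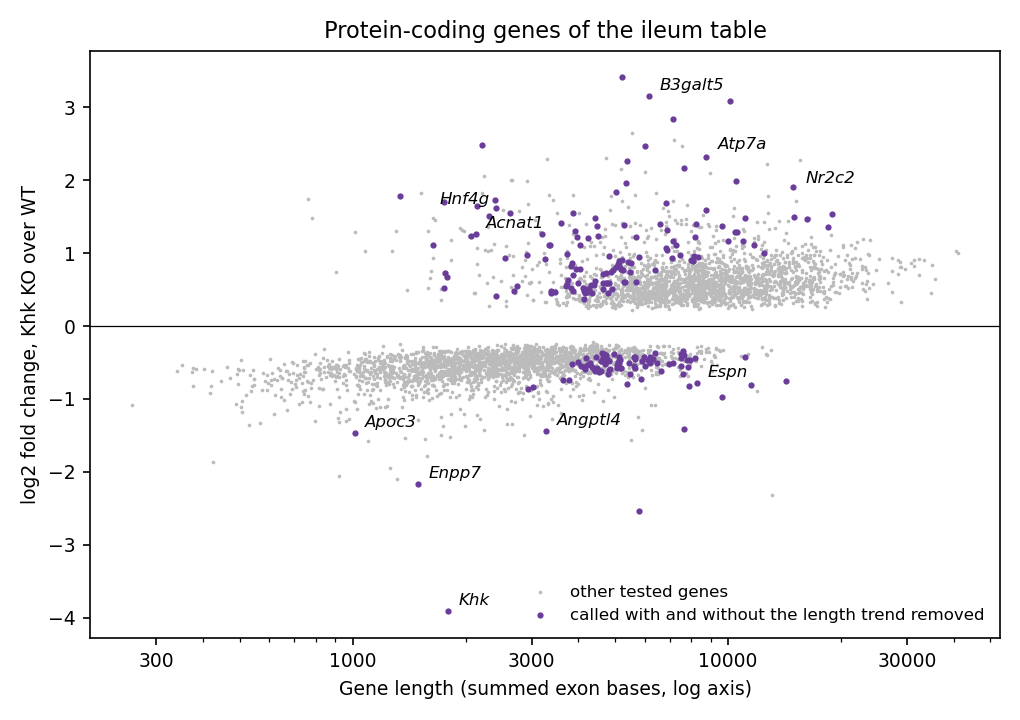
Difference between Khk KO and WT as a log2 fold change (y axis) against gene length in bases (log axis) for the tested protein-coding genes, with genes called in the same direction with and without the length trend removed in purple. Grey genes form a lower band at short lengths and an upper band at long lengths. Khk, Enpp7 and Angptl4 lie below the lower band, and Atp7a, Hnf4g, B3galt5 and Acnat1 above the genes of their length.

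Among these 45 genes, 41 were higher and 4 lower. They were singled out after their values were seen. Khk, Kcnn4 and Abtb1 were among the lower genes. Kcnn4, which encodes a calcium-activated potassium channel, held 593.1 ± 22.2 normalised counts in Khk KO, compared with 873.2 ± 12.7 in WT (n = 4, SD), a log2 fold change of -0.56 ± 0.10 (SE, edgeR adjusted p = 0.00948). The 4 values of Kcnn4 in each genotype lay close together and the groups did not overlap. Among the higher genes were the nuclear receptors Hnf4g, Nr1d2 and Nr2c2, the copper pump Atp7a, and A1cf, whose product takes part in the editing of the messenger of apolipoprotein B. Of the 45 genes 10 were not annotated as protein-coding, and all 10 were higher.

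Hnf4g encodes a nuclear receptor of gut and kidney epithelium (chromosome 3, 3508030 to 3658052, plus strand). Its Khk KO libraries held 3199, 3265, 3946 and 3377 normalised counts and its WT libraries 1355, 811, 1344 and 1188. Every Khk KO value was above every WT value by a wide margin. The fitted log2 fold change was 1.55 ± 0.17 (SE, edgeR adjusted p = 0.00254) and 1.95 ± 0.15 (SE, edgeR adjusted p = 5.60e-04) with the length trend removed. The 200 genes nearest to Hnf4g in length had a median of -0.49, and 98% of them lay below it. A1cf held 769, 904, 1309 and 996 normalised counts in Khk KO and 578, 391, 392 and 477 in WT, with log2 fold changes of 1.11 and 1.39 in the fits without and with the length trend removed. Klf9, a transcription factor gene that responds to glucocorticoids, had a mean of 1358 ± 188 normalised counts in Khk KO and 721 ± 130 in WT (n = 4, SD). Its log2 fold changes were 0.91 and 1.20 in the same order.

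Atp7a encodes the copper pump that exports copper from the enterocyte into the blood. It lies on chromosome X, 106027276 to 106124926, plus strand. It held 562, 603, 861 and 601 normalised counts in the Khk KO libraries against 139, 71.0, 161 and 158 in the WT libraries. The lowest Khk KO value was over 3 times the highest WT value. Khk KO over WT, the log2 fold change was 2.31 ± 0.25 (SE, edgeR adjusted p = 0.00254), and 1.82 ± 0.21 (SE, edgeR adjusted p = 0.00227) with the length trend removed. All 200 length neighbours lay below it. The authors' deposited table gave Atp7a log2 fold changes of 1.99 in liver (adjusted p = 0.00277) and 1.07 in jejunum (adjusted p = 0.137), in tables normalised separately.

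Of 18 copper and zinc genes, 9 were in the table, and 2 rose and 2 fell in the first fit. Without WT replicate 1 or 4 the falls were 4 and 5, and without any other library 0. The rises were 1 without Khk KO replicate 1, 3 or 4 or WT replicate 2 or 3. Atp7a was the one called with the length trend removed. Slc39a4, the zinc importer of the brush border, had a mean of 3047 ± 382 normalised counts in Khk KO, compared with 4817 ± 1004 in WT (n = 4, SD), a log2 fold change of -0.66 (edgeR adjusted p = 0.0339). With the length trend removed it was -0.33 (edgeR adjusted p = 0.208). Of 40 iron genes, 14 were in the table. In the first fit 2 rose and 4 fell, and the median of the 14 was -0.36, which became 7.61e-04 with the length trend removed. None of the 14 fell without Khk KO replicate 1, 2 or 4 or WT replicate 2, 1 fell without Khk KO replicate 3, and 6 fell without WT replicate 4. Without WT replicate 1, 5 rose and 5 fell, and without any library but Khk KO replicate 1 or WT replicate 1 a single gene rose. Ncoa4, the receptor that carries ferritin to its breakdown, held 828 ± 54.6 normalised counts in Khk KO, compared with 436 ± 72.9 in WT (n = 4, SD). It had a log2 fold change of 0.93 ± 0.14 (SE, edgeR adjusted p = 0.00639), above 91.5% of its length neighbours, and 0.40 (edgeR adjusted p = 0.133) with the trend removed. Alas1, the rate-setting enzyme of haem synthesis, was the iron gene called with the trend removed. It had a log2 fold change of -0.35 in the first fit (edgeR adjusted p = 0.135) and -0.64 (edgeR adjusted p = 0.0296) in the second. Ncoa4 and Atp7a passed the first fit without each library in turn. Slc39a4 did not pass without any one of Khk KO replicates 1 to 4, WT replicate 2 or WT replicate 3, and the second-fit call of Alas1 was lost without any one of the Khk KO replicates or WT replicate 2.

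Enzymes of cholesterol synthesis turn acetyl-CoA into sterol through mevalonate, and their genes are controlled together by SREBP2. Of 23 cholesterol genes, 8 were in the table and all 8 had lower values in Khk KO, where 49.3% of all tested genes of the table had higher values. The median length of the 8 was 3187 bases, and in the class from 2041 to 3471 bases 9.39% of the tested protein-coding genes were higher. Lower values were thus the rule at this length. Of the 8 genes, 6 lay below the median of their length neighbours and 2 above. Mvk and Ebp fell in the first fit. Tm7sf2 and Dhcr7 fell in the second. The median of the 8 was -0.57, or -0.40 without WT replicate 1 and -0.26 with the length trend removed, against -0.28, -0.15 and -0.011 over all tested genes of the table in the same fits. Mvk, which encodes mevalonate kinase, held 603, 503, 619 and 471 normalised counts in Khk KO and 1215, 826, 863 and 772 in WT, a log2 fold change of -0.74 (edgeR adjusted p = 0.0222). Ebp, a sterol isomerase, held 920 ± 15.3 normalised counts against 1386 ± 314 in WT (n = 4, SD), a log2 fold change of -0.59 (edgeR adjusted p = 0.0343). With the trend removed the values were -0.33 for Mvk and -0.13 for Ebp, neither past the threshold. Tm7sf2, a sterol reductase, had -0.54 (edgeR adjusted p = 0.0533) in the first fit and -0.73 (edgeR adjusted p = 0.0193) in the second. The summed level of the 8 genes was 6931 to 8501 normalised counts in the Khk KO libraries and 9202 to 14614 in the WT libraries. Without Khk KO replicate 1, 2 or 4 the first fit called none of the 8 genes, without WT replicate 1 it called 5, and without WT replicate 4 it called 6. The first-fit call of Mvk was lost without any one of these 3 Khk KO libraries, and that of Ebp without any Khk KO library, WT replicate 2 or WT replicate 3. The second-fit calls of Tm7sf2 and Dhcr7 were lost without Khk KO replicate 1, 2 or 4 or WT replicate 3, that of Tm7sf2 also without Khk KO replicate 3, and that of Dhcr7 also without WT replicate 2 or 4. Dhcr7 was named after its values were seen.

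The promoters of these genes are shown because the members in the table had lower values together, as did most genes near their median length. RefSeq promoters on GRCm38.p6 were matched by symbol for 6 of the 8 genes. Over the 250 bases before the start, CCAAT on either strand was present in at least one promoter of each of the 6, and in 37.5% of all 27025 genes with a promoter. CCAAT is the core of the site bound by NF-Y. TCACNCCAC, the core of the sterol response element, was in none of the 6 and in 1.22% of all genes. CACGTG, an E-box, was in 1 of the 6 and in 6.86% of all genes. The other motifs searched on both strands, 8 in all, were TGACGTCA, AGGTCA, the direct repeat of AGGTCA with 1 base between (which holds the AGGTCA motif), TCAAGGTCA (which also holds it) and ACTTCCGG. The same 8 motifs were searched in all 20 pathway lists, and only this list is shown. Among genes with a promoter, CCAAT was in 5 of 7 MHC class II genes, 4 of 6 genes of ER stress and 16 of 55 ribosomal protein genes. Dhcr7 has more than 1 promoter, and not all of them held CCAAT within 150 bases of the start. The motifs were looked at after the values were known, and a match is a description of the letters only. The 150 bases before the start are given 5′ to 3′ on the strand of the gene, with CCAAT and its reverse complement in capitals.
Mvk (chr5:114444119-114444268, plus strand): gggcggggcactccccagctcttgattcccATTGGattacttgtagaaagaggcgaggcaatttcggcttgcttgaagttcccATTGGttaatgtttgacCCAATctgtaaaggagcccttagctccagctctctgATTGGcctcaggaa
Ebp (chrX:8193513-8193662, minus strand): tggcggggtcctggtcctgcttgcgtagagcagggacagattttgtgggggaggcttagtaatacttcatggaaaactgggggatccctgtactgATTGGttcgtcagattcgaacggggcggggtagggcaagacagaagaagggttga
Tm7sf2 (chr19:6067851-6068000, minus strand): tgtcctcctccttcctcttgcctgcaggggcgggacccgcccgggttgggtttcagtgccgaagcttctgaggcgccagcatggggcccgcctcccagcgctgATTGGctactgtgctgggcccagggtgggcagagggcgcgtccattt
The window of Mvk holds 4 copies, and those of Ebp and Tm7sf2 hold 1 each.

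Genes of fat absorption were lower in Khk KO, but most of them are short. Of 32 listed genes, 17 were in the table, and 1 rose and 4 fell in the first fit. With the length trend removed 2 fell. The first fit called 7 lower without WT replicate 4, 5 without WT replicate 1 and 2 without any other library. The median was -0.56 in the first fit, -0.28 without WT replicate 1 and -0.20 with the trend removed. Enpp7, which encodes the alkaline sphingomyelinase of the brush border (chromosome 11, 118988188 to 118992841, plus strand), held 82.0, 32.4, 51.9 and 63.6 normalised counts in Khk KO and 446, 155, 241 and 202 in WT. WT replicate 1 was the highest, yet the lowest WT value was above all 4 Khk KO values. The fitted log2 fold change was -2.17 ± 0.37 (SE, edgeR adjusted p = 0.00922), -1.58 ± 0.30 (SE, edgeR adjusted p = 0.0196) with the trend removed, and none of its length neighbours lay below it.

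Apoc3, a small apolipoprotein of chylomicrons, held 178, 168, 137 and 145 normalised counts in Khk KO and 689, 372, 400 and 281 in WT. The gene's log2 fold change was -1.47 ± 0.25 (SE, edgeR adjusted p = 0.00946) and -0.83 ± 0.15 (SE, edgeR adjusted p = 0.0156) with the trend removed. Apoa1 and Fabp2 fell in the first fit by 1.09 and 0.88 on the log2 scale (edgeR adjusted p = 0.0499 and 0.0341). Apoa1 encodes the main protein of high-density lipoprotein and Fabp2 the intestinal fatty acid-binding protein. With the trend removed their values were -0.46 and -0.26 and did not pass. Abca1, a cholesterol exporter and a long gene, held 603, 576, 666 and 469 normalised counts in Khk KO and 137, 233, 309 and 322 in WT. It rose by 1.21 (log2, edgeR adjusted p = 0.0147), against 0.65 (edgeR adjusted p = 0.152) with the trend removed. The second-fit calls were lost without Khk KO replicate 3 or 4 for Apoc3 and Enpp7, and without WT replicate 3 for Enpp7. The first-fit call of Abca1 was lost without WT replicate 2, and those of Apoa1 and Fabp2 without any Khk KO replicate, WT replicate 2 or WT replicate 3.

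Of 30 listed genes of fatty acid oxidation, 10 were in the table. In the first fit 4 fell, and with the trend removed 5 fell, with none higher in either. The medians were -0.45 and -0.37, and -0.34 without WT replicate 1. Without WT replicate 1 the first fit called 8, and without any one of the Khk KO replicates it called 1. Angptl4, a secreted inhibitor of lipoprotein lipase and a target of PPAR receptors (chromosome 17, 33773750 to 33781575, minus strand), held 108, 124, 270 and 135 normalised counts in Khk KO and 428, 469, 399 and 425 in WT. Khk KO replicate 3 stood above the other Khk KO libraries and below every WT library. Khk KO over WT, the log2 fold change was -1.44 ± 0.26 (SE, edgeR adjusted p = 0.0111), below all 200 of its length neighbours, and -1.17 ± 0.25 (SE, edgeR adjusted p = 0.0290) with the trend removed.

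The other 4 genes called with the trend removed encode enzymes of beta-oxidation. Hadha, the alpha subunit of the mitochondrial trifunctional protein, held 3807, 4267, 4894 and 4527 normalised counts in Khk KO and 6008, 5235, 5456 and 5661 in WT. Its log2 fold change was -0.35 (edgeR adjusted p = 0.0814) in the first fit and -0.86 ± 0.09 (SE, edgeR adjusted p = 0.00192) in the second. Its length neighbours, all from the selected genes of the table, had a median of 0.56 in the first fit. Echs1, the enoyl-CoA hydratase, had -0.36 (edgeR adjusted p = 0.0613) and -0.85 ± 0.11 (SE, edgeR adjusted p = 0.00300). These 2 second-fit calls passed without each library in turn, each time with a trend taken from the selected genes of the table. Both genes, outside the naming rule, were singled out after their values were seen. Hadh and the peroxisomal thiolase Acaa1a had second-fit values of -0.58 and -0.57 (edgeR adjusted p = 0.0340 and 0.0461). Both calls, and that of Angptl4 in the second fit, were lost without any one of Khk KO replicates 1, 2 and 4, WT replicate 2 or WT replicate 3. They were also lost without Khk KO replicate 3 for Hadh and Acaa1a, and without WT replicate 4 for Angptl4.

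Of 20 genes around fructose uptake and breakdown, 10 were in the table and 9 were tested. In the first fit 1 rose, and with the trend removed 1 rose and 3 fell. Arrdc4, which responds to glucose through ChREBP and MondoA, held 1010, 853, 769 and 726 normalised counts in Khk KO and 584, 421, 492 and 455 in WT. edgeR gave a log2 fold change of 0.78 ± 0.14 (SE, edgeR adjusted p = 0.0121) and 0.91 ± 0.13 (SE, edgeR adjusted p = 0.00465) with the trend removed, and its neighbours had a median of -0.36 in the first fit. Akr1b3, the aldose reductase that starts fructose synthesis from glucose, held 579, 578, 510 and 511 normalised counts in Khk KO and 724, 684, 637 and 731 in WT. It did not pass in the first fit (-0.35, edgeR adjusted p = 0.0631) and fell in the second (-0.83 ± 0.11, SE, edgeR adjusted p = 0.00295). Aldh2 and Adh5, enzymes of aldehyde breakdown, had second-fit values of -0.46 and -0.48 (edgeR adjusted p = 0.0197 and 0.0257). Their calls were lost without any one of Khk KO replicates 2 and 4, WT replicate 2 or WT replicate 3, and also without Khk KO replicate 1 for Aldh2 and Khk KO replicate 3 for Adh5.

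Of 21 glycolysis genes, 9 were in the table. In the first fit 2 rose and 1 fell, and with the trend removed 1 rose and 2 fell. The first fit called 3 in each direction without WT replicate 1, and 1 gene in all without Khk KO replicate 1 or 2. Pfkfb2, whose product makes the activator of phosphofructokinase, rose in both fits, by 1.10 (log2, edgeR adjusted p = 0.00684) and by 0.70 (edgeR adjusted p = 0.0284). It held 465, 422, 514 and 672 normalised counts in Khk KO and 241, 201, 265 and 257 in WT. Of the exonic bases of Pfkfb2, 17.4% lie within another gene, and the strandedness of the libraries is not settled by the labels. Its second-fit call was lost without Khk KO replicate 1, 3 or 4 or WT replicate 2, 3 or 4. The glycolytic enzymes Eno1 and Gpi1 fell in the second fit by 0.79 and 0.88 on the log2 scale (edgeR adjusted p = 0.0199 and 0.0176), with first-fit values of -0.64 and -0.56 that did not pass. In both genes WT replicate 1 was the highest library, at 16260 and 10713 normalised counts. The second-fit calls of Eno1 and Gpi1 were lost without Khk KO replicate 1, 2 or 3, and that of Eno1 also without Khk KO replicate 4.

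**Figure D3:**
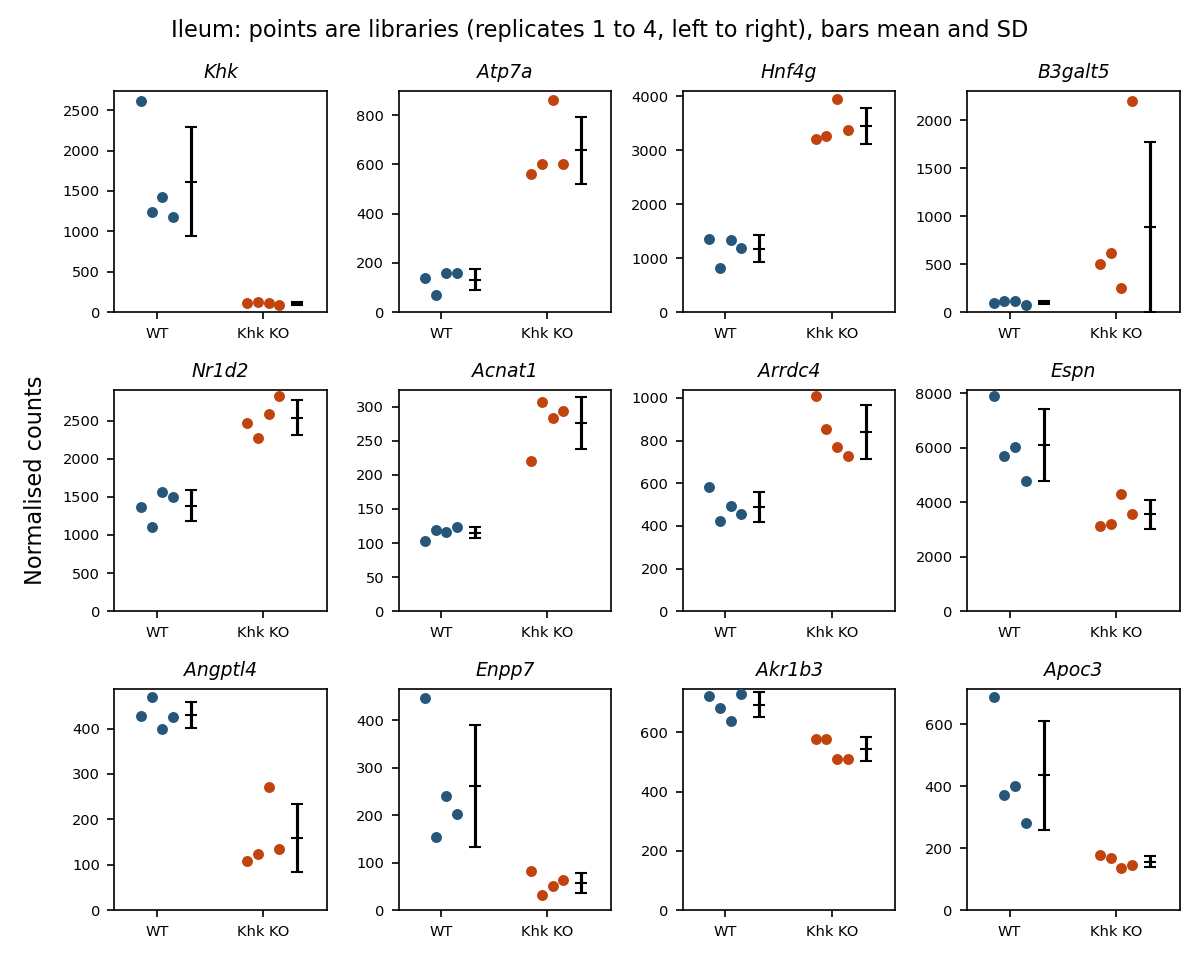
Normalised counts (y axes from 0) of 12 genes in the WT (blue) and Khk KO (orange) ileum libraries, with each library a point and the mean and SD as bars. The genotypes do not overlap in any of these chosen genes, which also holds for 98.0% of the called genes and 66.8% of the table, Khk KO replicate 4 stands far above the others for B3galt5, and WT replicate 1 is the highest WT library for Khk, Enpp7, Apoc3, Espn, Arrdc4 and Hnf4g.

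Among enterocyte structure genes, Espn stood apart from genes of its length. It encodes espin, an actin bundler of the microvillus (chromosome 4, 152120331 to 152152371, minus strand). The libraries held 3142, 3199, 4290 and 3585 normalised counts in Khk KO and 7898, 5714, 6043 and 4763 in WT. The fitted log2 fold change was -0.78 ± 0.17 (SE, edgeR adjusted p = 0.0225), and -1.27 ± 0.16 (SE, edgeR adjusted p = 0.00300) with the trend removed. Only 0.5% of its length neighbours lay below it. Of 30 genes of the mature brush border, 13 were in the table, and 2 fell, Espn and the trehalase gene Treh (edgeR adjusted p = 0.0183, with -0.50 and no call with the trend removed). Slc3a1, a subunit of the cystine transporter, was higher in the second fit (0.69, edgeR adjusted p = 0.0341) and had 0.28 in the first (edgeR adjusted p = 0.159). Of its exonic bases 26.5% overlap another gene. The second-fit call of Slc3a1 was lost without any one of the Khk KO replicates or WT replicate 2, and the first-fit calls of Espn and Treh without Khk KO replicate 1 or 2, that of Espn also without Khk KO replicate 4 or WT replicate 2.

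In the first fit 3 of the 7 ileal enterocyte markers in the table fell and 1 rose. Of all tested genes of the table, 33.1% were called in that fit. Amn, part of the receptor for vitamin B12 bound to intrinsic factor, had 1419 ± 265 normalised counts in Khk KO and 2659 ± 776 in WT (n = 4, SD), a log2 fold change of -0.91 (edgeR adjusted p = 0.0244). Guca2b, which encodes uroguanylin, had -1.07 (edgeR adjusted p = 0.0320). Both are short, and with the trend removed they had -0.38 and -0.42 and did not pass. Slc10a5, a transporter-like gene of the bile acid carrier family, held 467, 471, 851 and 644 normalised counts in Khk KO and 228, 117, 368 and 276 in WT. It rose by 1.30 (log2, edgeR adjusted p = 0.0305), and by 1.43 (edgeR adjusted p = 0.0313) with the trend removed. None of these calls held without each library in turn: those of Guca2b and Slc10a5 were lost without any one of the Khk KO replicates, and that of Amn without Khk KO replicate 1, 2 or 4 or WT replicate 2. Of 18 bile acid genes 6 were in the table, and Baat, which conjugates bile acids, fell in the first fit by 0.73 (log2, edgeR adjusted p = 0.0469) and was not called in the second. The call of Baat was lost without any one of the Khk KO replicates, WT replicate 2 or WT replicate 3.

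**Figure D4:**
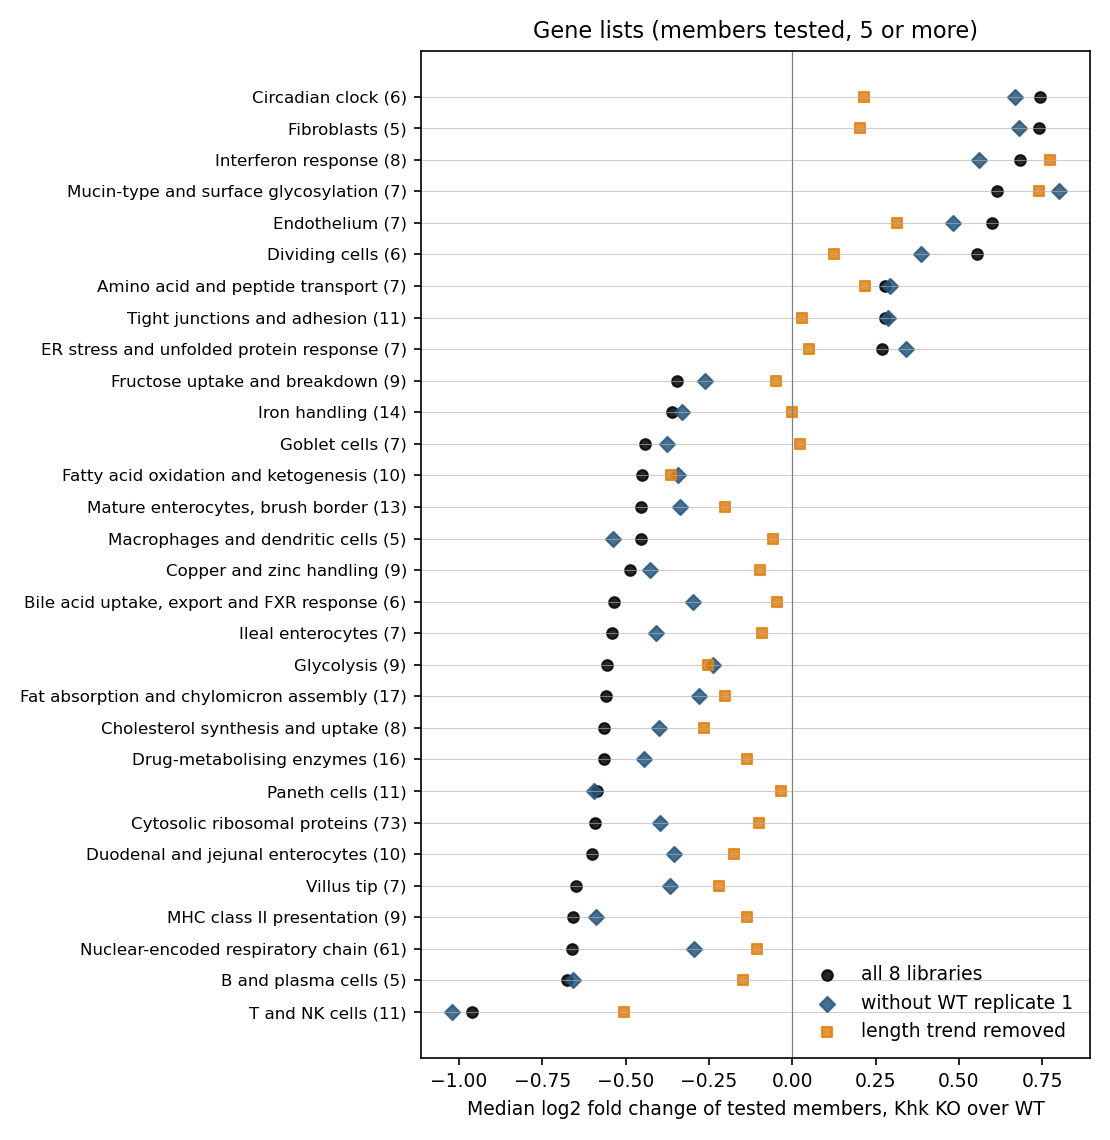
Median log2 fold change of the tested members of each gene list with 5 or more tested members (number in brackets), in the fit of 8 libraries, without WT replicate 1 and with the length trend removed. Most medians move toward 0 with the length trend removed, including those of the ribosomal and respiratory chain lists at about -0.10, while the farthest from 0 are then interferon response (0.77), mucin-type glycosylation (0.74), T and NK cells (-0.50) and fatty acid oxidation (-0.37).

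Ribosomal protein genes and nuclear genes of the respiratory chain are short, and both lists lay closer to the genes of their length than to 0. Of their members, 46 of 73 and 47 of 61 lay below the median of their length neighbours. Those neighbours can include other members of the same list. Of 79 ribosomal protein genes 73 were in the table and all 73 had lower values. In the first fit 34 fell, without WT replicate 1 65 fell, and with the trend removed 3 fell. Without Khk KO replicate 1 or 2 none fell in the first fit, and without Khk KO replicate 3, Khk KO replicate 4 or WT replicate 2 at most 2 did. Without WT replicate 3 the number was 18. The median was -0.59, which became -0.40 without WT replicate 1 and -0.10 with the trend removed. Of 72 respiratory chain genes 61 were in the table, all lower, and 4 fell, with a median of -0.66 that became -0.30 and -0.10 in the same fits. The number that fell was 27 without WT replicate 1, 37 without WT replicate 4, and 0 without any one of the other libraries. Rps3, chosen after its values were seen, fell in both fits (-0.57 and -0.55, edgeR adjusted p = 0.0255 and 0.00887). Its first-fit call was lost without any one of the Khk KO replicates or WT replicate 2, while the second-fit call passed without each library in turn. Rpl21, the ribosomal gene with the largest fall, held 1106, 1155, 1483 and 1128 normalised counts in Khk KO and 5243, 2404, 1684 and 2504 in WT, and its call was lost without any Khk KO replicate or WT replicate 2. Near-identical ribosomal pseudogenes can share reads with these genes, so their values are uncertain.

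Paneth cell genes were lower in Khk KO, and their genes are among the shortest of the table, with a median length of 426 bases. Of 36 listed genes 11 were in the table, all 11 lower, and Defa2, Defa21, Defa22 and Defa29, all defensins, fell in the first fit. Defa21 held 32409, 39187, 34834 and 25662 normalised counts in Khk KO and 76774, 58761, 59066 and 55619 in WT, with no overlap. It had a log2 fold change of -0.92 ± 0.19 (SE, edgeR adjusted p = 0.0167), and 18% of its length neighbours lay below it. Defa2 had the largest fall, -1.86, in which WT replicate 3 held 46680 normalised counts and WT replicate 4 7452. With the trend removed none of the 11 was called and their median was -0.034. Without WT replicate 1, 6 fell, without Khk KO replicate 1 or 4 none did, a single gene did without Khk KO replicate 2 or 3, and 2 did without WT replicate 2. The summed level of the 11 was 177214 to 216074 normalised counts in Khk KO and 269952 to 346100 in WT. Defensin genes are a family of near-identical copies whose reads cannot be split with certainty. In bulk tissue, fewer cells of a type and less RNA per cell cannot be told apart.

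Of the goblet cell markers, 7 of 20 were in the table, and in the first fit 1 rose and none fell. That gene was Sytl2, an effector of RAB27 in secretion and a long gene, with 1184 ± 176 normalised counts in Khk KO and 746 ± 156 in WT (n = 4, SD). It rose by 0.67 (log2, edgeR adjusted p = 0.0349), close to its neighbours' median of 0.66, and had 0.023 with the trend removed. Its call was lost without any one of the Khk KO replicates or WT replicate 2. Without WT replicate 1 the first fit called 1 goblet gene higher and 2 lower, and without WT replicate 4 1 higher and 4 lower. Muc2, the gel-forming mucin, is long, and had 45948, 46308, 46445 and 63282 normalised counts in Khk KO, compared with 58754, 60878, 69612 and 72953 in WT. Khk KO replicate 4 lay within the WT range. Muc2 had a log2 fold change of -0.38 in the first fit (edgeR adjusted p = 0.191) and fell in the second (-0.77 ± 0.13, SE, edgeR adjusted p = 0.0112), a call lost without Khk KO replicate 1 or 2. Of 25 enteroendocrine genes 5 were in the table, and Nts, neurotensin, and Chga, chromogranin A, fell by 0.70 and 0.60 on the log2 scale in the first fit (edgeR adjusted p = 0.0271 and 0.0244). In the second they had -0.14 and -0.22 and were not called. Both first-fit calls were lost without Khk KO replicate 1, 2 or 4 or WT replicate 2, and that of Chga also without Khk KO replicate 3 or WT replicate 3. No tuft cell gene was called, with 3 of 20 in the table.

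Of 28 listed genes of mucin-type and surface glycosylation, 7 were in the table and all 7 had higher values. B3galt5, Gcnt4, Galnt7 and C1galt1 rose in the first fit, and B3galt5, Gcnt4 and B4galnt2 in the second, none being lower. The median was 0.61, 0.80 without WT replicate 1 and 0.74 with the trend removed. B3galt5 encodes a galactosyltransferase that builds type 1 chains on glycans (chromosome 16, 96235801 to 96319859, plus strand). Its Khk KO libraries held 498, 621, 248 and 2201 normalised counts and its WT libraries 98.2, 115, 113 and 74.5. Khk KO replicate 4 was far above the other Khk KO libraries, each of which was above every WT library. The log2 fold change of B3galt5 was 3.15 ± 0.58 (SE, edgeR adjusted p = 0.0122). Without each library in turn it ran from 2.18 to 3.46 and passed each time. With the trend removed it was 2.86 ± 0.58 (SE, edgeR adjusted p = 0.0245), a call lost without WT replicate 2, 3 or 4.

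C1galt1, which makes the core 1 structure of mucin glycans, held 2217, 2391, 2278 and 2303 normalised counts in Khk KO and 2050, 1154, 1387 and 1414 in WT, a log2 fold change of 0.61 (edgeR adjusted p = 0.0397). Gcnt4, a branching enzyme, had 0.85 (edgeR adjusted p = 0.0225) and 0.74 (edgeR adjusted p = 0.0437) in the second fit. B4galnt2, which makes the Sda antigen, had 0.35 (edgeR adjusted p = 0.134) and 0.82 (edgeR adjusted p = 0.0377). These calls were less firm than that of B3galt5: in the first fit those of C1galt1 and Gcnt4 were lost without Khk KO replicate 3 or 4, WT replicate 2 or WT replicate 3, and C1galt1 also without Khk KO replicate 1 or 2 or WT replicate 4. The call of Galnt7 was lost without any Khk KO replicate, WT replicate 2 or WT replicate 3. The second-fit call of Gcnt4 was lost without every library but Khk KO replicate 1, and that of B4galnt2 without any Khk KO replicate or WT replicate 2. With the trend removed, the calls of the list numbered 5 without WT replicate 1 and 0 without WT replicate 2.

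Clock genes in the table were all higher, 6 of 19 listed, with a median of 0.74 that became 0.22 with the trend removed. Their median length was 8144.5 bases, and in the class from 5817 to 9160 bases 84.9% of the tested protein-coding genes were higher. All 6 lay above the median of their length neighbours, by a median of 0.16. The first fit called 3 of the 6, against 33.1% of all tested genes of the table, and the second called 1. Nr1d2 encodes REV-ERB beta, a repressor in the clock (chromosome 14, 18204054 to 18239127, minus strand). It held 2468, 2270, 2592 and 2823 normalised counts in Khk KO and 1363, 1107, 1569 and 1504 in WT, without overlap. Khk KO over WT, the log2 fold change was 0.87 ± 0.13 (SE, edgeR adjusted p = 0.00698) and 0.71 ± 0.11 (SE, edgeR adjusted p = 0.00732) with the trend removed, and both calls passed without each library in turn. Clock itself, a long gene, rose by 0.86 (log2, edgeR adjusted p = 0.00555) in the first fit and had 0.20 in the second (edgeR adjusted p = 0.902). Rora had 0.82 (edgeR adjusted p = 0.0257) and 0.20, and its first-fit call was lost without any one of the Khk KO replicates. The labels give no time of day of sampling.

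Genes of T and NK cells had the lowest median of the lists with 5 or more tested members, without any call. Of 25 listed, 11 were in the table and all 11 were lower, with a median of -0.96, -1.02 without WT replicate 1 and -0.50 with the trend removed. Cd3e, a subunit of the T cell receptor complex, held 156, 91.9, 227 and 45.3 normalised counts in Khk KO and 216, 300, 147 and 384 in WT. The groups overlapped, and Khk KO replicate 4 was the lowest. The gene's log2 fold change was -1.02 ± 0.43 (SE, edgeR adjusted p = 0.145). Ccl5, a chemokine of these cells, held 635, 295, 982 and 151 against 1452, 1571, 917 and 1153, with a log2 fold change of -1.31 (edgeR adjusted p = 0.0847). All 11 lay below the median of their length neighbours. None was called in either fit of 8 libraries. Without Khk KO replicate 3, 1 gene of the list was called.

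Khk KO replicate 4 was also the lowest library in the summed level of MHC class II genes, at 46410 normalised counts against 71954 to 92850 in the other Khk KO libraries and 103708 to 128777 in WT. Of 12 such genes 9 were in the table, all lower, and 2 fell in the first fit, H2-Ab1 and Ifi30. The 9 genes are mostly short, with a median length of 1410 bases, and 4 lay above the median of their length neighbours and 5 below. Their median log2 fold change of -0.66 became -0.13 with the trend removed, where none was called. H2-Ab1 had -0.74 (edgeR adjusted p = 0.0488), and -0.23 with the trend removed. The call of H2-Ab1 was lost without any one of the Khk KO replicates, WT replicate 2 or WT replicate 3. Cd74, the invariant chain, held 38414, 34541, 46693 and 22055 normalised counts against 61268, 59179, 49068 and 53869 in WT, with -0.66 (edgeR adjusted p = 0.0805). Summed levels of 5 macrophage and dendritic cell genes were 2866 to 4273 in Khk KO and 3965 to 5715 in WT, and of 5 B and plasma cell genes 106686 to 191915 and 193613 to 253114. No gene of either list was called in the fits of 8 libraries, and without WT replicate 1 the first fit called 4 macrophage genes lower. All 5 macrophage genes lay above the median of their length neighbours, and of the B and plasma cell genes 1 lay above and 4 below. With the trend removed the list medians were -0.058 and -0.15. Adipocyte genes, 4 of 10 in the table, summed to 619 to 1393 in Khk KO and 776 to 3231 in WT, with WT replicates 1 and 2 the highest. The part of these cells in other results was not tested.

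**Figure D5:**
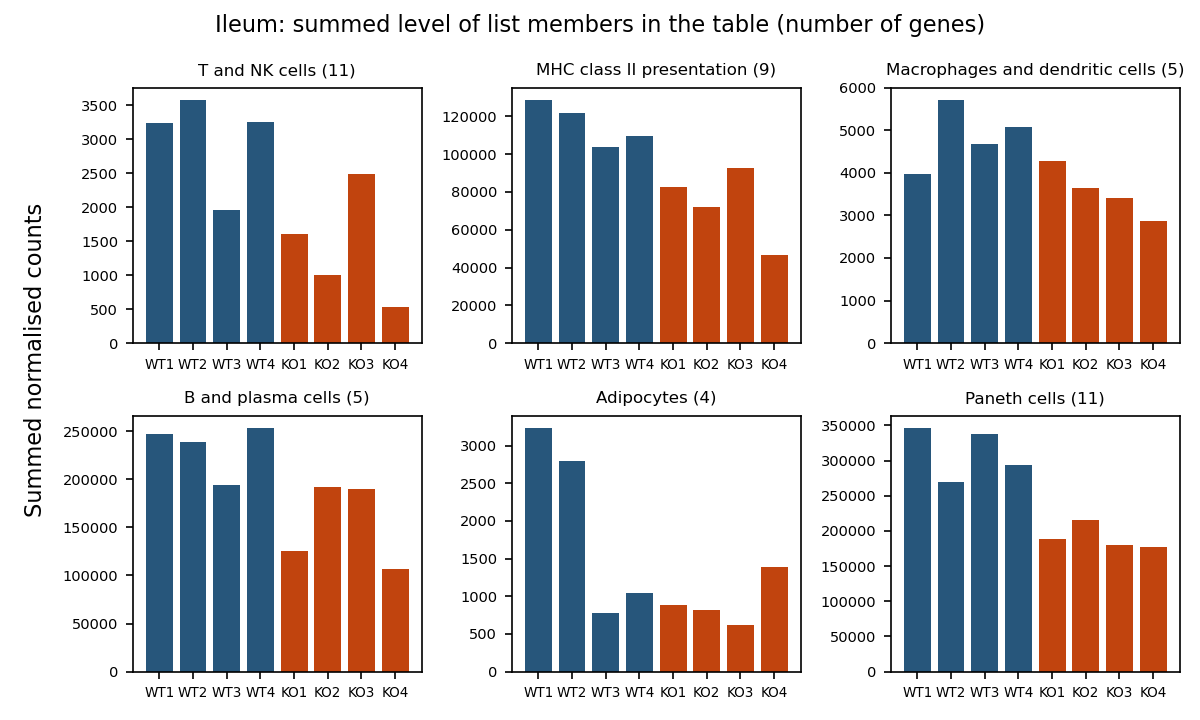
Summed normalised counts (y axes from 0) of the members of 6 lists in each ileum library, WT in blue and Khk KO in orange. Khk KO replicate 4 is the lowest of the 8 libraries for T and NK cells (534) and MHC class II genes (46410), and WT replicates 1 and 2 are the highest for adipocyte genes (3231 and 2802).

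Stromal, vessel and dividing-cell genes in the table were mostly long and mostly higher. Pdgfra, a marker of fibroblasts and telocytes, held 1935, 1805, 1568 and 1470 normalised counts in Khk KO and 898, 1008, 1063 and 1054 in WT. Its log2 fold change was 0.75 ± 0.12 (SE, edgeR adjusted p = 0.00766), above 75% of its length neighbours, and 0.20 with the trend removed, where it was not called. Flt1, a receptor for vascular growth factors, rose by 0.91 (log2, edgeR adjusted p = 0.00504), and had 0.27 with the trend removed. Both first-fit calls passed without each library in turn. Of 34 dividing-cell genes 6 were in the table, and Cenpe and Cenpf, long genes of the kinetochore, rose. The call of Cenpe was lost without Khk KO replicate 2 or WT replicate 2, and that of Cenpf without any Khk KO replicate or WT replicate 2. Mki67 had 0.55 in the first fit (edgeR adjusted p = 0.0757) and 0.0021 in the second. Bmp5, a signal of villus fibroblasts, was called in both fits, with 1.11 (edgeR adjusted p = 0.0258) and 1.22 (edgeR adjusted p = 0.0373). Of its exonic bases 46.7% overlap another gene, and both calls were lost without any one of Khk KO replicates 1, 2 and 4 or WT replicate 2, the second also without WT replicate 4.

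In the remaining lists, Slc38a2, an amino acid transporter, rose by 0.94 (log2, edgeR adjusted p = 0.00481), and had 0.44 (edgeR adjusted p = 0.0696) with the trend removed. Dhrs3, which returns retinal to retinol, held 377, 361, 491 and 369 normalised counts in Khk KO and 807, 697, 795 and 603 in WT. It fell by 0.86 (log2, edgeR adjusted p = 0.00888), and by 0.51 (edgeR adjusted p = 0.0472) with the trend removed, where the call was lost without any one of Khk KO replicates 1, 2 and 4 or WT replicates 2 to 4. Ada, adenosine deaminase of the villus tip, fell by 0.86 (log2, edgeR adjusted p = 0.0119), and had -0.42 with the trend removed. Tjp1, the tight junction protein ZO-1, rose by 0.66 (log2, edgeR adjusted p = 0.0122) and had 0.21 with the trend removed, while Jup, plakoglobin, had -0.39 in the first fit (edgeR adjusted p = 0.0896) and fell by 0.72 in the second (edgeR adjusted p = 0.00821). Of 48 drug-metabolising genes 16 were in the table and 3 fell. The number was 0 without Khk KO replicate 1, 2 or 4, 1 without WT replicate 2 or 3, 8 without WT replicate 1 and 5 without WT replicate 4. Of 35 interferon genes 8 were in the table and 1 rose, Gbp7, with list medians of 0.68 in the first fit, 0.56 without WT replicate 1 and 0.77 with the trend removed. The call of Gbp7 was lost without Khk KO replicate 1, 2 or 3 or WT replicate 2 or 3. No drug-metabolising or interferon gene was called with the trend removed.

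Genes outside the lists also held large changes. Zc3h11a had 359 ± 15.1 normalised counts in Khk KO and 65.1 ± 20.3 in WT (n = 4, SD), but 72.9% of its exonic bases lie within another gene of the same symbol, so its reads cannot be told from those of its neighbour. Zfp871, a zinc finger gene, held 421, 302, 554 and 247 normalised counts against 70.9, 63.8, 98.4 and 82.8, a log2 fold change of 2.27 ± 0.27 (SE, edgeR adjusted p = 0.00336). Exph5, Nr2c2, Lcor and Pdpr rose by 1.98, 1.91, 2.17 and 1.84 (log2), and each was above at least 99% of its length neighbours. Exph5 encodes an effector of RAB27B, Nr2c2 an orphan nuclear receptor, Lcor a corepressor of nuclear receptors and Pdpr a regulator of pyruvate dehydrogenase phosphatase. Of the exonic bases of Nr2c2 30.7% overlap another gene. These 4 calls passed in both fits and without each library in turn.

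Genes that rose although their length neighbours were mostly lower included Acnat1, Uprt and Fam83b. Acnat1, a fatty acid acyltransferase of peroxisomes, held 220, 307, 283 and 294 normalised counts in Khk KO and 103, 119, 116 and 123 in WT. It had a log2 fold change of 1.26 ± 0.16 (SE, edgeR adjusted p = 0.00445), against a neighbour median of -0.50 in the same fit, and 1.69 with the trend removed. Btnl4, a butyrophilin-like gene of gut epithelium, had a mean of 1910 ± 97.5 normalised counts in Khk KO and 1150 ± 186 in WT (n = 4, SD). The translation initiation genes Eif2s3x and Eif3a rose by 0.82 and 0.79 (log2, edgeR adjusted p = 0.00752 for each). Tat, tyrosine aminotransferase, spread widely, with 1023, 2199, 488 and 1080 against 612, 387, 322 and 242, and the genotypes overlapped. Tifa, an adaptor of innate signalling, held 2740, 5820, 1648 and 3292 against 1356, 1508, 1396 and 1359. Without Khk KO replicate 1, 2 or 4 or WT replicate 2 or 3 the first-fit calls of Tat and Tifa were lost, and for Tat also without WT replicate 4. Their second-fit calls were lost without WT replicate 2, and for Tifa also without Khk KO replicate 4 or WT replicate 3.

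Long genes that fell against the genes of their length included Espn, described above, and Ebpl, Mme, Ppfia3, Mrpl17, Usp37 and Faah. Mme, which encodes the peptidase neprilysin, held 529, 774, 1133 and 613 normalised counts in Khk KO and 1399, 997, 1364 and 1574 in WT, and Khk KO replicate 3 lay within the WT range. The gene's log2 fold change was -0.81 (edgeR adjusted p = 0.0492) and -1.41 (edgeR adjusted p = 0.00465) with the trend removed. Faah, which breaks down endocannabinoids, had -0.56 (edgeR adjusted p = 0.0458) and -1.01 (edgeR adjusted p = 0.00465). Ebpl, a relative of the sterol isomerase Ebp, had -0.75 (edgeR adjusted p = 0.0270) and -1.43 (edgeR adjusted p = 0.00441). In Ebpl, Mme, Ppfia3, Mrpl17, Usp37 and Faah the second-fit call passed without each library in turn, and the first-fit call was lost without any one of Khk KO replicates 1 and 2 and WT replicate 2.

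Some classes of loci that are not protein-coding differed from coding genes of their length in the share that was higher. The tested loci that are not protein-coding numbered 424, with a median length of 1210.5 bases, and 56.6% were higher. Of these, 75 carried the class TEC, expressed loci of unsettled type, of which 89.3% were higher, with a median log2 fold change of 1.53. Of 60 antisense loci 78.3% were higher, with a median of 1.41. Removing the length trend raised these medians to 1.86 and 1.84, and without WT replicate 1 they were 1.36 and 1.13. In the first fit 22 TEC loci were called higher and 2 lower, and 8 antisense loci higher and 2 lower. The TEC loci among the 45 genes above had WT means of 5.27 to 30.8 normalised counts. Genes with few counts enter the table only with large changes, so the size of these medians cannot be set against that of coding genes with more counts. In contrast to the TEC and antisense loci, 28.8% of 118 processed pseudogenes were higher. Their median log2 fold change was -0.60, as in the shortest class of coding genes, where 3.44% were higher. With the trend removed the median of the pseudogenes was 0.026. Since the strandedness is unknown, reads of an antisense locus cannot be told from those of its partner.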

How the data were processed

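Polyadenylated RNA of ileum from 4 Khk KO and 4 WT mice was analysed. Raw read counts per gene were deposited by the authors, and HISAT2 2.0.5 and GRCm38 are named in the submitters' processing notes. The counting tool is not given in the sources used here. The signal values are the authors' normalised counts, raw counts divided by 1 size factor per library. FPKM values were deposited by the authors and used here only to gauge library totals. The log2 fold changes and p-values deposited by the authors are named as such where printed, and 439 adjusted p-values of exactly 1 were not used. The gene lengths were deposited by the authors. The 24 per-sample columns that could not be tied to a sample were not used.

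Raw counts were tested with edgeR 4.0.16 (quasi-likelihood, filterByExpr, the authors' size factors), which left 4788 genes. Benjamini-Hochberg adjustment used all 16034 genes the authors had tested, at 0.05. The length trend of a library was a lowess curve (span 0.5, genes with a mean of at least 10, log2 of normalised counts plus 1), entered as an offset. DESeq2 1.42.0 and limma 3.58.1 were alternatives. Library totals implied by FPKM ran from 17297866 to 27068822 reads.

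The genes and the 40 gene lists were chosen with earlier results of these data known. A listed gene is not reported here, and its list was counted without it. Named genes were Khk, up to 6 members per list with the largest change and a mean of at least 50 normalised counts, defining markers, and the 12 largest rises and falls, with and without the length trend, among called genes with a mean of at least 100. Another 15 genes were named after their values were seen: Hadha, Echs1, Dhcr7, Adh5, Aldh2, Gpi1, Alas1, Rps3, Jup, A1cf, Klf9, Btnl4, Kcnn4, Eif3a and Eif2s3x. Abtb1, Galnt7 and Ifi30 are named as members of a count.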

Additional observations from a re-analysis of the deposited data

Results flagged for a closer look

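In groups of 4 libraries, 19 of 188 sets of values had a library standing far from the other 3 by Dixon's criterion, and chance gives about 1 in 20. WT replicate 1 accounted for 9 and Khk KO replicate 3 for 6.

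WT replicate 1 was the highest WT library, in normalised counts, for Hadh (7343), Echs1 (2015), Dhcr7 (1210), Ebp (1852), Eno1 (16260), Gpi1 (10713), Defa21 (76774), Nts (1300.4) and Ndufa11 (2746), a subunit of respiratory complex I. Khk KO replicate 3 was the highest Khk KO library for Atp7a (861), Angptl4 (270.3), Amn (1812), Rpl21 (1483) and Dhrs3 (491). It also had the highest smoothed deviation of the Khk KO libraries at 16000 bases, 0.44 on the log2 scale. Khk KO replicate 2 was the highest Khk KO library for Defa2 (7381 normalised counts) and Khk KO replicate 4 for Muc2 (63282). WT replicate 2 was the lowest WT library for Rora (110.5) and WT replicate 4 for Chga (630.4).

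Usp37, a deubiquitinase gene, was lower in every Khk KO ileum library and had a log2 fold change of 1.00 in liver in the authors' deposited table, where every Khk KO library was above every WT library. The difference between the organs was not tested.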

How the results depend on the processing

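The 1585 calls of the first fit became 3391 with DESeq2, 935 with the GC trend removed, 4565 when adjusted over the genes of the table alone, and 2505 by the adjusted p of the authors' deposited table. Leaving out 1 library at a time gave 452 (without Khk KO replicate 2) to 2579 (without WT replicate 1) calls, and 208 (without Khk KO replicate 1) to 763 (without WT replicate 1) against 476 with the length trend removed. With the replicate block the numbers were 471 and 281. The deviations of libraries of the same number had correlations of -0.044, -0.051, 0.023 and -0.19. The labels do not say whether such libraries share more than a number, and these values cannot settle it. Aldh2 and Jup turned to 0.030 and 0.089 with the GC trend removed. With the length trend removed the list medians turned to 0.023 for goblet cells, -0.081 for tuft cells, 0.11 for secreted antimicrobial proteins and 7.61e-04 for iron. That of enteric neurons and glia was 0.21 without WT replicate 1. The difference of Sytl2 from the median of its length neighbours, 0.0019 with 200 neighbours, was -0.026 with 100. The cause was not tested. Of the other values for single genes in the first fit, 739 of those under other settings kept their direction and side of the threshold, 95 fell short of it and 74 newly passed it. The list alternatives on length, TMM, GC and WT replicate 1 were chosen after seeing the data. The filter on low counts left 4788 of 5187 genes, and the others were not tested.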
